A study of Mus musculus with 17 samples.

Results

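Cytosolic and mitochondrial heat shock proteins were followed in mouse liver after a dose of dioxin. The group holds 10 listed genes: Hspd1, Hspe1, Hspa1b, Hspa8, Hsph1, Dnajb1, Hsp90aa1, Hspb1, Hspb8 and Hsf1. It was chosen by name and function, with no measured value in the rule, but with earlier results of these data known. Of the 10 genes, 9 had at least 1 probe set that names them alone, 24 probe sets in all, out of 18193 genes and 45037 probe sets on the array. Hsf1, which encodes the main heat shock transcription factor, is named by no probe set in the array annotation used and was not analysed here. Each gene is represented by its brightest probe set (highest mean of the 17 arrays), and its other probe sets are given where they bear on the result.

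Heat shock proteins are chaperones that bind unfolded protein chains and help them fold, refold or be passed on for breakdown. In the mitochondrial matrix Hspd1 (HSP60) forms a folding chamber that Hspe1 (HSP10) closes like a lid. In the cytosol Dnajb1 (an HSP40) hands clients to the HSP70 proteins Hspa1b and Hspa8, Hsph1 (an HSP110) exchanges their nucleotide, and Hsp90aa1 (HSP90 alpha) takes over later folding steps, including those of the aryl hydrocarbon receptor (AHR), which waits for ligand in a complex with HSP90. The small heat shock proteins Hspb1 and Hspb8 hold unfolded protein without using ATP. Under heat or protein damage Hsf1 binds inverted repeats of the bases GAA upstream of many of these genes.

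Total RNA from the livers of male mice was hybridised to 17 Affymetrix expression arrays, 1 per sample. Livers were taken 19 h after a single gavage of TCDD, a dioxin that binds AHR, at 1000 µg/kg in corn oil, or of corn oil alone, and TCDD had been added to the oil in ether that was then evaporated. The groups were wild type (Ahr+/+ C57BL/6J) with TCDD (n = 6), wild type with corn oil (n = 5), AHR knockout (Ahr–/– on a C57BL/6J background) with TCDD (n = 3) and AHR knockout with corn oil (n = 3). At 10 weeks of age, the knockout mice had been bought from The Jackson Laboratory. Wild type mice were 15 weeks old and had been bred in Kuopio, so age and source cannot be told apart from genotype. The deletion is in every cell of the knockout mice. No label says that each replicate was a separate animal. The p-values therefore rest on the spread between the samples as numbered, part of which may be technical.

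Of the 17 arrays, 3 stood apart and are named here because results are given with and without them. Replicate 6 of wild type with TCDD had a residual SD of 0.319 against 0.124 to 0.173 on the other arrays, and a gap between 3′ and 5′ Gapdh control probe sets of 1.98 against -0.165 to -0.011. Replicate 1 of knockout with TCDD read 12.64 for Cyp1a1, a cytochrome P450 gene that AHR switches on, where the other knockout TCDD arrays read 5.32 and 5.34, wild type arrays with TCDD 15.08 to 15.25 and wild type arrays with corn oil 4.98 to 6.95. Cyp1a2, a related gene, read 13.27 there, 11.69 on replicate 2 and 11.20 on replicate 3 of knockout with TCDD, 15.54 to 15.68 on wild type arrays with TCDD and 13.22 to 13.37 on wild type arrays with corn oil. On that array Tiparp, another AHR target, read 5.18, against 10.08 to 10.99 on wild type arrays with TCDD. Whether its label or its RNA is mixed could not be settled. Replicate 3 of knockout with corn oil was the lowest of all 17 arrays for Hspa1b. It was picked by that value of a member alone. Its residual SD (0.162) and Gapdh gap (-0.011) lay within the ranges just given. Values without it therefore show how far a result rests on that array, and their p-values are no separate support. Ahr itself averaged 9.45 ± 0.04 in knockout with TCDD and 9.50 ± 0.21 in knockout with corn oil (SD, n = 3 each), against 10.02 ± 0.37 in wild type with TCDD (n = 6) and 9.89 ± 0.38 in wild type with corn oil (n = 5). No source used here places that probe set inside or outside the deleted part, so it does not check the genotype. The hepatocyte markers summed to 17.79 to 18.06 on the log2 scale over all 17 arrays and the skeletal muscle markers to 4.84 to 4.96.

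The mitochondrial pair is shown first because both genes start from the same stretch of DNA, running in opposite directions. The stretch of 215 bases between the inner start of Hspd1 and the start of Hspe1 lies at chr1:55087933-55088147 (plus strand, RefSeq, GRCm38.p6). A second, outer start of Hspd1 at 55088243 puts the stretch inside the span of Hspd1. The capitals mark a run of 18 bases that fits 4 units of the heat shock element, searched as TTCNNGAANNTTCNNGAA or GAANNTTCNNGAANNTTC on both strands. The run ends 72 bases before the start of Hspe1. Shown for contrast are the 150 bases upstream of Hspa1b, at chr17:34959239-34959388 (minus strand), where the capitals mark a match to 2 units (GAANNTTC), and the 150 bases upstream of Hspb8, at chr5:116422865-116423014 (minus strand), which hold no match to 2 units (GAANNTTC or TTCNNGAA).
Hspd1-Hspe1: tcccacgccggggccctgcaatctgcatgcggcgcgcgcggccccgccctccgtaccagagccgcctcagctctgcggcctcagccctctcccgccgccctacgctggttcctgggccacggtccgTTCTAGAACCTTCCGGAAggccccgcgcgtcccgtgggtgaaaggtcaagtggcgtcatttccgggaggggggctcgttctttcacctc
Hspa1b: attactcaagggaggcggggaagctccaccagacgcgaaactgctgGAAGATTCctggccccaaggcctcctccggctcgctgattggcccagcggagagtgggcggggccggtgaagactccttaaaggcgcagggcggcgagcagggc
Hspb8: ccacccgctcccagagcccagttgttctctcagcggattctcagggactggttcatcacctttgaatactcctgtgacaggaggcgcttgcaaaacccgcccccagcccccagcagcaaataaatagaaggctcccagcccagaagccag

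A match to 4 units was found in the 250 bases before the start in 7 of 32851 RefSeq mouse promoters (0.0213%). The promoters of Hspe1 and of the inner Hspd1 start, which share the run, are both among the 7. A match to at least 2 units was found in 12.8%, and to the AHR core letters GCGTG or CACGC in 28.2%. The shared Hspd1 and Hspe1 stretch holds 1 such core. Of the 10 genes, 7 had a promoter in the table used. The Hspb1 promoter holds 2 matches to 2 units, those of Hspa1b and Hsph1 hold 1 each, and neither start of Dnajb1 has one. These are matches of letters and not measured binding sites.

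TCDD raised both subunits of the mitochondrial chaperonin in wild type livers and no other member passed the test there. Hspe1, the lid, read 12.41, 12.47, 12.54, 12.55, 12.70 and 12.79 (log2 level) with TCDD. With corn oil it read 11.80, 12.06, 12.12, 12.15 and 12.16. The lowest dosed array thus lay above the highest corn oil array, as for 2.34% of all probe sets. The means were 12.58 ± 0.14 with TCDD (SD, n = 6) and 12.06 ± 0.15 with corn oil (n = 5), a log2 difference of 0.52 ± 0.08 (SE) or 1.43-fold (limma adjusted p = 0.000815). A second probe set of Hspe1 also rose, by 0.41 ± 0.09 (adjusted p = 0.0167), with no overlap between the groups. Replicate 6 of the TCDD group was the highest array on both probe sets. Without any 1 array, that one included, the difference of the first probe set was 0.46 to 0.55. It stayed called each time (adjusted p at most 0.00295).

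Hspd1, the chamber, rose less. It read 13.47, 13.64, 13.70, 13.72, 13.72 and 13.76 with TCDD. With corn oil it read 13.29, 13.36, 13.39, 13.44 and 13.51. The only overlap came from replicate 6 of the TCDD group, the array with the wide Gapdh gap, which lay below 1 corn oil array. The means were 13.67 ± 0.10 with TCDD (n = 6) and 13.40 ± 0.08 with corn oil (n = 5), a log2 difference of 0.27 ± 0.05 or 1.21-fold (limma adjusted p = 0.00632), and 0.31 (adjusted p = 0.000611) without replicate 6. The arrays were scanned on 3 days. With scan day as a block the differences were 0.55 for Hspe1 and 0.27 for Hspd1, both called. Within day 1 they were 0.71 for Hspe1 and 0.45 for Hspd1, given as values only, since that day held 2 arrays with TCDD and 1 with corn oil, replicate 1, the lowest corn oil array for both genes. Within day 2 (4 with TCDD, 3 with corn oil) they were 0.47 for Hspe1 (adjusted p = 0.0745) and 0.19 for Hspd1 (adjusted p = 0.371).

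In all, 2 of 9 members rose with TCDD in wild type livers and none fell, against 6.32% of all 18193 genes called by the same rule (3.75% higher) and 4.18% of all 45037 probe sets. The median difference over the 9 members was 0.16, against 0.0092 over all genes. Counted by probe set, 3 of 24 were called, the pair for Hspe1 and the one for Hspd1. The representative probe sets of the members lay at percentiles 91.6 to 99.8 of mean level among all probe sets. Shares and medians over all genes or probe sets, here and below, include many dim ones and were not matched for level.

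**Figure D1:**
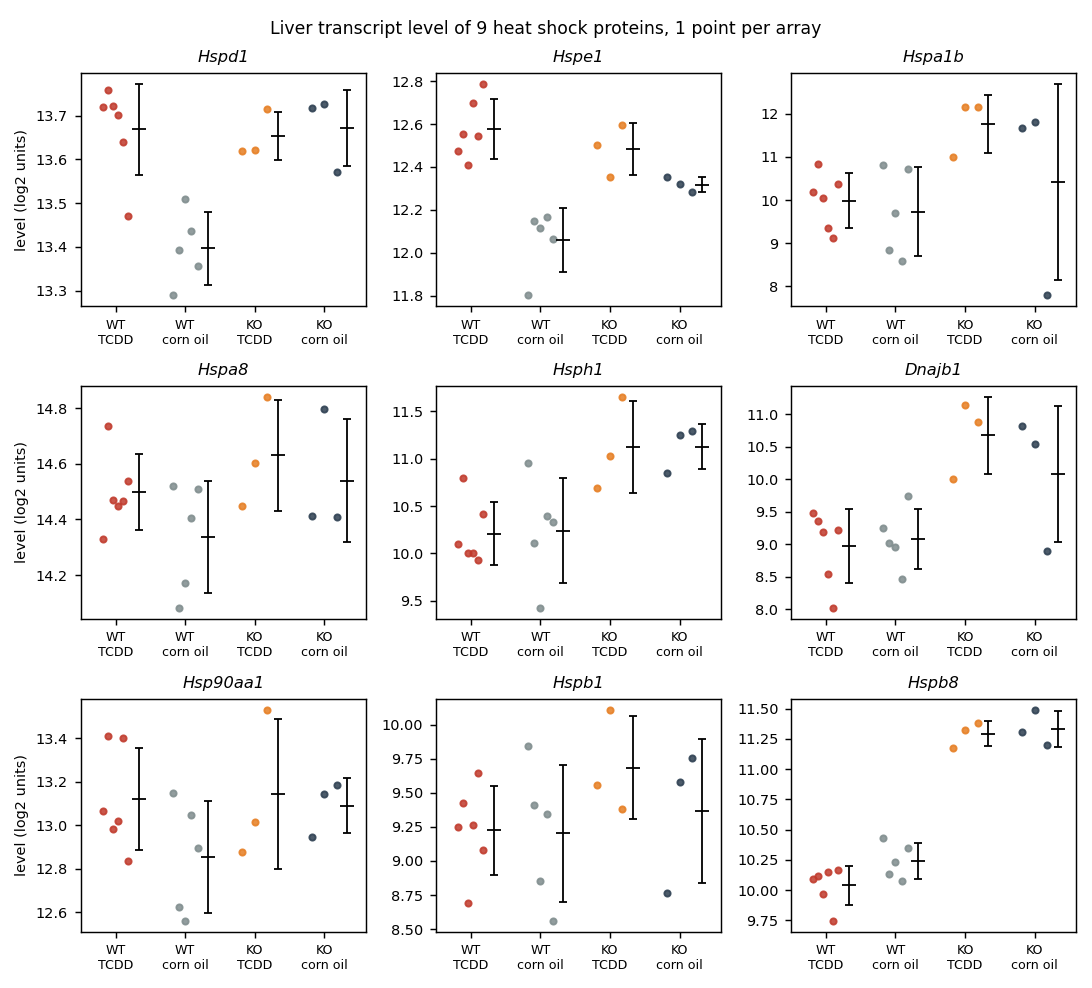
Log2 level of the representative probe set of each of the 9 measured members, 1 point per array, in wild type with TCDD (n = 6), wild type with corn oil (n = 5), knockout with TCDD (n = 3) and knockout with corn oil (n = 3). The bar beside each group is mean ± SD. The vertical axes differ between panels and do not start at 0. Hspe1 and Hspd1 stood higher with TCDD in wild type, Hspb8 stood higher in both knockout groups, and 1 knockout array with corn oil was far below the others for Hspa1b.

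In knockout livers neither subunit passed the test. Hspe1 read 12.35, 12.50 and 12.59 with TCDD and 12.28, 12.32 and 12.35 with corn oil, a difference of 0.17 ± 0.10 (SE, limma adjusted p = 0.875). Hspd1 read 13.62, 13.62 and 13.72 with TCDD and 13.57, 13.72 and 13.73 with corn oil, a difference of -0.019 ± 0.07 (adjusted p = 0.937). None of the 9 members was called for TCDD in knockout livers, where 0.0133% of all probe sets (6 of 45037) and 0.011% of genes were. At an unadjusted p under 0.05, 2 of the 24 member probe sets passed there, against 2.8% of all probe sets. Dose went largely with scan day in knockout. The corn oil arrays were scanned on days 1, 1 and 2 and the TCDD arrays on days 2, 2 and 3. With scan day as a block the differences were 0.065 ± 0.11 for Hspe1 and 0.0067 ± 0.08 for Hspd1, neither called.

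The TCDD effect in knockout minus that in wild type was tested directly. It was -0.29 ± 0.09 for Hspd1 (95% interval -0.48 to -0.10, limma adjusted p = 0.209) and -0.35 ± 0.13 for Hspe1 (-0.63 to -0.08, adjusted p = 0.371). No member was called in that test, with 1.11% of all probe sets and 1.63% of genes called, and 4 of the 24 member probe sets were under an unadjusted p of 0.05, against 7.81% of all probe sets. The Hspd1 difference was called without replicate 6 of wild type with TCDD (-0.33, adjusted p = 0.0346) and with array weights (-0.33, adjusted p = 0.00871). The Hspe1 difference was not called without that array (-0.31, adjusted p = 0.404) or with array weights (-0.32, adjusted p = 0.118). A rise in one genotype and no call in the other is therefore not shown to differ between them with all arrays weighted alike.

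With corn oil alone, both subunits averaged higher in knockout than in wild type livers, and Hspd1 passed the test. Hspd1 in knockout with corn oil lay above every wild type array with corn oil, at 13.67 ± 0.09 (SD, n = 3) against 13.40 ± 0.08 (n = 5), a difference of 0.27 ± 0.06 (limma adjusted p = 0.0467). That call was lost without any 1 of 14 of the 17 arrays and with scan day as a block (0.26, adjusted p = 0.154). It was also lost with quantile normalization (0.23, adjusted p = 0.173) and with median centring (0.26, adjusted p = 0.166). Within day 2, where 1 knockout array stood against 3 wild type arrays, the difference was 0.13. Hspe1 in knockout with corn oil was 12.32 ± 0.04 (n = 3) against 12.06 ± 0.15 in wild type (n = 5). The groups did not overlap, as for 3.75% of all probe sets in that direction, and the difference of 0.26 ± 0.09 did not pass the test (adjusted p = 0.299). With TCDD in both genotypes the differences were -0.016 ± 0.06 for Hspd1 and -0.095 ± 0.09 for Hspe1. The 95% interval of the Hspd1 difference ran from -0.15 to 0.11 there and from 0.14 to 0.41 with corn oil. The change from one to the other is the difference of effects given above, which was not called (limma adjusted p = 0.209).

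**Figure D2:**
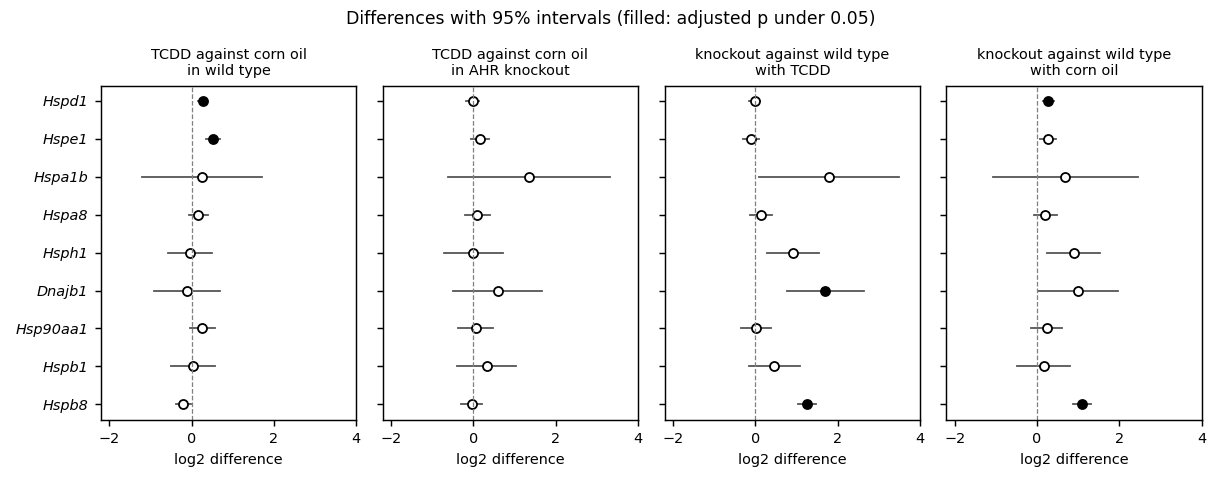
Log2 difference (point) and 95% interval (line) of the 9 members in 4 comparisons, with filled points for limma adjusted p under 0.05 over all 45037 probe sets. Hspd1 and Hspe1 were called for TCDD in wild type, Hspb8 and Dnajb1 for knockout against wild type with TCDD, and Hspb8 and Hspd1 for knockout against wild type with corn oil.

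Hspb8, a small heat shock protein that works with the co-chaperone Bag3 in clearing misfolded protein, was called in both comparisons of genotype. It read 11.18, 11.32 and 11.38 in knockout with TCDD. It read 9.74, 9.97, 10.09, 10.12, 10.15 and 10.17 in wild type with TCDD. With corn oil it read 11.20, 11.31 and 11.49 in knockout and 10.07, 10.13, 10.23, 10.35 and 10.43 in wild type. On this probe set every knockout array lay above every wild type array. Groups were separated in that direction for 4.43% of all probe sets with TCDD and 3.75% with corn oil. Another Hspb8 probe set, with a mean of 7.54, overlapped between the genotypes with TCDD.

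The Hspb8 difference was 1.25 ± 0.10 with TCDD (2.38-fold, limma adjusted p = 2.45e-06) and 1.09 ± 0.10 with corn oil (2.13-fold, adjusted p = 4.83e-05). All 3 probe sets of Hspb8 were called in both comparisons, with differences from 0.45 to 1.34 with TCDD and from 0.63 to 1.09 with corn oil. With scan day as a block the values were 1.26 with TCDD and 1.04 with corn oil, both called. Within day 2 the difference with TCDD was 1.24 (2 knockout against 4 wild type arrays, adjusted p = 0.00371). With corn oil it was 0.97 within day 1 (2 knockout arrays against 1 wild type array, adjusted p = 0.115) and 1.05 within day 2 (1 against 3, adjusted p = 0.0359). In both of these corn oil fits an arm of 1 array is assumed to vary like the others, so they are no check of the spread. Without replicate 1 of knockout with TCDD the difference with TCDD was 1.31. The Hspb8 difference of TCDD minus corn oil was -0.20 ± 0.09 in wild type (adjusted p = 0.333) and -0.041 ± 0.12 in knockout, and the knockout effect minus the wild type effect was 0.16 ± 0.14.

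Hspb1 (HSP25 in mouse), the other small member, overlapped in every comparison. It ran from 8.69 to 9.64 (median 9.26) in wild type with TCDD and read 8.56, 8.86, 9.34, 9.41 and 9.84 with corn oil, a difference of 0.022 ± 0.25. In knockout it read 9.38, 9.56 and 10.11 with TCDD and 8.77, 9.58 and 9.75 with corn oil. Knockout against wild type was 0.17 ± 0.30 with corn oil and 0.46 ± 0.29 with TCDD (limma adjusted p = 0.406 for TCDD). The second Hspb1 probe set gave 0.31 ± 0.30 with corn oil and 0.74 ± 0.29 with TCDD (adjusted p = 0.211 for TCDD), neither called.

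Hspa1b, the heat-inducible HSP70, varied most among the members, with an SD of 1.29 over all 17 arrays. It read 11.00, 12.15 and 12.17 in knockout with TCDD. In wild type with TCDD it ran from 9.12 to 10.83 (median 10.11). Each knockout array thus lay above each wild type array, as for 4.43% of all probe sets, and the difference was 1.79 ± 0.79, which did not pass the test (limma adjusted p = 0.283). With corn oil the knockout arrays read 7.78, 11.66 and 11.81 and the wild type arrays 8.58, 8.84, 9.70, 10.72 and 10.82. Replicate 3 alone held the low knockout value, and the difference between genotypes with corn oil was 0.69 ± 0.82 with it and 2.004 (adjusted p = 0.205) without it.

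The Hspa1b difference of TCDD minus corn oil was 0.25 ± 0.68 in wild type livers. In knockout livers the difference was 1.36 ± 0.92, and 0.039 without replicate 3 of the corn oil group, so that array held nearly all of it. With scan day as a block the knockout difference was 2.16 ± 0.74 (limma adjusted p = 0.772). That array was the only knockout corn oil array scanned on a day with dosed knockout arrays. The difference of the TCDD effects was 1.11 ± 1.14 and turned to -0.21 without that array. The 3 probe sets of Hspa1b gave 1.72 to 1.82 for knockout against wild type with TCDD, and none was called. On the probe set with a mean of 9.84 those groups overlapped, the lowest knockout array reading 10.50 and the highest wild type array 10.52. Hspa1b has a near-identical neighbour, Hspa1a, and the array may read both transcripts, so the value is uncertain as to the copy. Their 250 bases before the start differ at 3 bases, which does not bear on what the probes read. The probe set that represents Hspa1a averaged 4.41 in knockout with TCDD and 3.03 in knockout with corn oil. In wild type it averaged 2.66 with TCDD and 2.66 with corn oil, all low levels.

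Dnajb1, the HSP40 partner that was closest to Hspa1b in profile, was called between the genotypes after the dose. It read 10.01, 10.88 and 11.14 in knockout with TCDD. In wild type with TCDD it read 8.02, 8.54, 9.19, 9.23, 9.36 and 9.49. Those groups did not overlap, and the difference was 1.70 ± 0.44 or 3.26-fold (limma adjusted p = 0.0325). The second Dnajb1 probe set gave 1.07 ± 0.29 (adjusted p = 0.0396). Without replicate 1 of knockout with TCDD, the array high in Cyp1a1, the difference was 2.04 (adjusted p = 0.0295). The call was lost without replicate 2 or 3 of that group (adjusted p = 0.147 and 0.140). It was also lost without replicate 4 or 5 of wild type with TCDD (0.0655 and 0.0560). Within day 2 the difference was 1.83 (adjusted p = 0.108). Of 26 alternatives, these among them, 6 lost the call, with adjusted p up to 0.190.

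With corn oil Dnajb1 read 8.89, 10.55 and 10.83 in knockout and 8.47, 8.96, 9.03, 9.25 and 9.74 in wild type, where the lowest knockout value lay within the wild type range. It was again replicate 3. The difference was 1.001 ± 0.45 (adjusted p = 0.559), and 1.60 (adjusted p = 0.1001) without replicate 3. The Dnajb1 difference of TCDD minus corn oil was -0.12 ± 0.38 in wild type. In knockout it was 0.59 ± 0.51, -0.0090 without replicate 3 of the corn oil group, and 0.93 ± 0.46 (limma adjusted p = 0.772) with scan day as a block. The difference of those effects was 0.70 ± 0.63.

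Hsph1, the HSP110 that releases nucleotide from HSP70, read 10.69, 11.03 and 11.65 in knockout with TCDD and 9.93 to 10.79 (median 10.05) in wild type with TCDD. With corn oil it read 10.85, 11.24 and 11.29 in knockout and 9.42, 10.11, 10.33, 10.40 and 10.95 in wild type. In both comparisons 1 wild type array lay above the lowest knockout array. The genotype difference was 0.92 ± 0.29 with TCDD (limma adjusted p = 0.0913) and 0.89 ± 0.30 with corn oil (adjusted p = 0.254). The first of these was called when only probe sets above the median level were tested (adjusted p = 0.0425) and without replicate 3 of wild type with corn oil (0.0422). In wild type the Hsph1 difference of TCDD minus corn oil was -0.034 ± 0.25.

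Hspa8, the HSP70 made at all times, and Hsp90aa1 did not pass the test in any comparison. Hspa8 ran from 14.33 to 14.74 (median 14.47) in wild type with TCDD and read 14.08, 14.17, 14.41, 14.51 and 14.52 with corn oil, a difference of 0.16 ± 0.11. Its knockout values were 14.45, 14.60 and 14.84 with TCDD and 14.41, 14.41 and 14.80 with corn oil, and knockout against wild type with corn oil was 0.20 ± 0.13. The groups overlapped, and another Hspa8 probe set with a mean of 6.34 varied by an SD of 1.48 over the arrays. Hspa8, Hspd1 and Hspe1 have processed pseudogenes, and reads of those copies cannot be separated on the array.

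Hsp90aa1 ran from 12.84 to 13.41 (median 13.04) in wild type with TCDD and read 12.56, 12.62, 12.90, 13.04 and 13.15 with corn oil, a difference of 0.26 ± 0.15. Its knockout values were 12.88, 13.02 and 13.53 with TCDD and 12.94, 13.14 and 13.18 with corn oil, and knockout against wild type with corn oil was 0.24 ± 0.18. Another Hsp90aa1 probe set, with a mean of 11.5, gave 0.69 ± 0.33 for knockout against wild type with corn oil, with no overlap between the groups (adjusted p = 0.617), and 0.54 ± 0.32 with TCDD (adjusted p = 0.392). Of its 5 probe sets, those with means of 1.88 and 2.997 lay below the array medians (3.08 to 3.19). Hsp90ab1, the other cytosolic HSP90, had no probe set that names it alone and was not analysed here.

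Between genotypes, 2 of 9 members were called with TCDD (Hspb8 and Dnajb1) and 2 with corn oil (Hspb8 and Hspd1), all 4 differences being higher in knockout, against 8.98% (4.57% higher) and 2.34% (1.4% higher) of all genes. By probe set, 5 and 4 of 24 were called, against 5.92% and 1.45% of all 45037. With only probe sets above the median level tested, 952 were called with corn oil, against 654 of all. The share among these brighter probe sets was thus higher than 1.45%. The representative probe sets of all 9 members had positive differences with corn oil, where 31.4% of all genes lay below 0, and 7 of 9 with TCDD, where 68.9% did. The median differences were 0.46 with TCDD and 0.27 with corn oil, against -0.020 and 0.0062 over all genes. The genotype and TCDD comparisons share arrays, so their values stand side by side and do not support one another.

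Profiles over all 17 arrays were compared by the root mean square difference after each gene was centred on its own mean. Hspa1b was taken as the most variable member, and Dnajb1 was the closest of all annotated genes, at 0.64. The next were Sgk1 (0.77), Slc20a1 (0.77), P4ha1 (0.81), Coq10b (0.83), Vasn (0.84), Esm1 (0.87) and Bag3 (0.87), whose own SDs were 0.60 to 1.06. Among the members, Hsp90aa1 and Hspa8 were closest to each other (0.17), followed by Hspd1 and Hspe1 (0.18), the smallest values going with the genes that varied least.

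Bag3, the co-chaperone that links HSP70 to Hspb8, was the HSP70 co-chaperone with the largest genotype difference. It read 9.69, 9.69 and 10.41 in knockout with TCDD and 7.01, 7.43, 7.68, 7.85, 7.88 and 8.10 in wild type with TCDD. Those groups were far apart, with a difference of 2.27 ± 0.42 (limma adjusted p = 0.00372), and 2.39 (adjusted p = 0.0122) without replicate 1 of knockout with TCDD. With corn oil it averaged 9.47 ± 1.04 in knockout (n = 3) and 8.38 ± 0.64 in wild type (n = 5), replicate 3 of the knockout group being lowest there at 8.43.

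**Figure D3:**
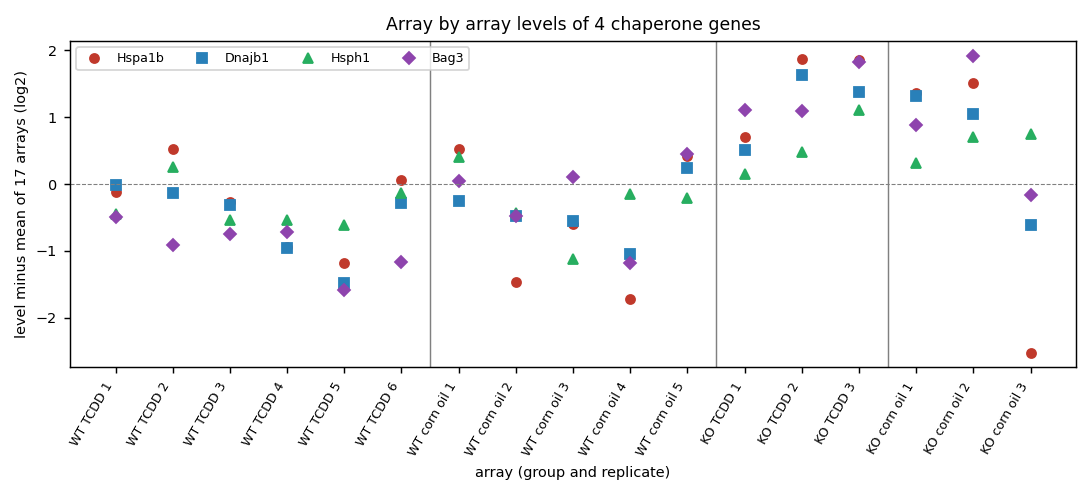
Log2 level minus the gene's mean over 17 arrays for Hspa1b, Dnajb1, Hsph1 and Bag3, 1 marker per gene and array, with grey lines between the groups. Knockout arrays other than replicate 3 with corn oil lie high for all 4 genes. That array is low for Hspa1b and Dnajb1, near the mean for Bag3 and high for Hsph1.

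A further list of 80 chaperones and co-chaperones, of which 75 were measured, was set beside the members. This list too was chosen with earlier results of these data known, so its counts are description only. In wild type livers TCDD raised 11 of the 75 and lowered 1, against 6.32% of all genes called. Of the 11, 6 belonged to the cytosolic chaperonin CCT, which folds actin and tubulin, or to its feeder prefoldin. Of 13 such genes measured 6 rose and none fell, all 13 differences were positive (33.1% of all genes lay below 0) and their median was 0.23, against 0.0092 over all genes. Tcp1, the first subunit, read 10.83 to 11.04 with TCDD and 10.34 to 10.54 with corn oil, with no overlap, and rose by 0.51 ± 0.05. The subunits Cct6a (0.41 ± 0.06), Cct5 (0.41 ± 0.05), Cct3 (0.37 ± 0.05) and Cct7 (0.30 ± 0.08) and the prefoldin subunit Pfdn2 (0.23 ± 0.04) rose as well, with limma adjusted p from 1.54e-05 for Tcp1 to 0.0335 for Cct7. The Cct7 call was lost without any 1 of 7 arrays, among them replicate 6 of wild type with TCDD (0.28, adjusted p = 0.0736); the other 5 calls held without each single array. Within day 2, 3 of the 13 were called, and within day 1, with 1 corn oil array, none.

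In knockout livers none of the 13 was called with TCDD and their median difference was 0.0045. The difference of the TCDD effects was negative for all 13, as for 69.2% of all genes, and called for Tcp1 (-0.67 ± 0.08, adjusted p = 0.000668), Cct5 (-0.46 ± 0.09, adjusted p = 0.0246) and Cct3 (-0.44 ± 0.09, adjusted p = 0.0319), with 1.63% of all genes called. With TCDD in both genotypes Tcp1, Cct6a, Cct5 and Cct3 were lower in knockout, by -0.65, -0.40, -0.30 and -0.30. Without replicate 1 of knockout with TCDD the difference of effects was -0.72 for Tcp1 and -0.48 for Cct3, both called, and -0.46 for Cct5 (adjusted p = 0.0510). The Cct5 call was lost without any 1 of 4 arrays and the Cct3 call without any 1 of 10, and the Tcp1 call held without each. With scan day as a block Tcp1 kept its call, and those of Cct5 (-0.42, adjusted p = 0.170) and Cct3 (-0.46, adjusted p = 0.156) were lost. Within day 2, where the knockout corn oil arm was 1 array, none of the 3 was called.

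Among the other mitochondrial chaperones and proteases, 3 of 10 rose with TCDD in wild type and none fell. Grpel2, a nucleotide exchange factor of mitochondrial HSP70, read 9.21 to 10.18 with TCDD and 8.16 to 9.13 with corn oil and rose by 1.08 ± 0.23 (adjusted p = 0.0127). The matrix protease subunit Clpp (0.28 ± 0.06) and the inner membrane protease subunit Afg3l2 (0.24 ± 0.06) rose less, the last losing its call without any 1 of 14 arrays. With TCDD in both genotypes Grpel2 was lower in knockout (-1.51 ± 0.27, adjusted p = 0.00277), and Grpel1, its paralogue, was higher in knockout with corn oil (0.18 ± 0.04, adjusted p = 0.0473), a call also lost without any 1 of 14 arrays.

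Of the 9 other HSP70 and HSP110 genes, Hspa14, which binds ribosomes, rose with TCDD in wild type by 0.55 ± 0.13 (adjusted p = 0.0285), a call lost without any 1 of 6 arrays, among them replicate 6 of that group (0.54, adjusted p = 0.0580). Hspa2 rose as well, by 0.93 ± 0.12, to 4.08 ± 0.17 with TCDD (n = 6) against 3.14 ± 0.24 with corn oil (n = 5), close to the array medians, and was lower in knockout with TCDD (-0.84 ± 0.15). Of 7 other small heat shock genes 1 was called. Hspb6 (HSP20) read 7.54 to 7.79 in wild type with TCDD and 7.84 to 8.38 with corn oil and fell by 0.39 ± 0.10 (adjusted p = 0.0362), a call lost without any 1 of 9 arrays. In knockout with corn oil it was lower than in wild type by 0.94 ± 0.12, the opposite direction to Hspb8. None of 12 other HSP40 genes, 12 HSP90 genes and co-chaperones, 9 HSP70 co-chaperones and 3 heat shock factor genes or regulators passed for TCDD in wild type. With TCDD in both genotypes the HSP90 co-chaperones Fkbp5 (0.96 ± 0.23) and Tomm34 (0.19 ± 0.03) were higher and the HSP40 Dnajc8 (-0.61 ± 0.14) lower in knockout. Without replicate 1 or 3 of knockout with TCDD Fkbp5 was not called, and without replicate 2 or 3 of that group Dnajc8 was not.

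**Figure D4:**
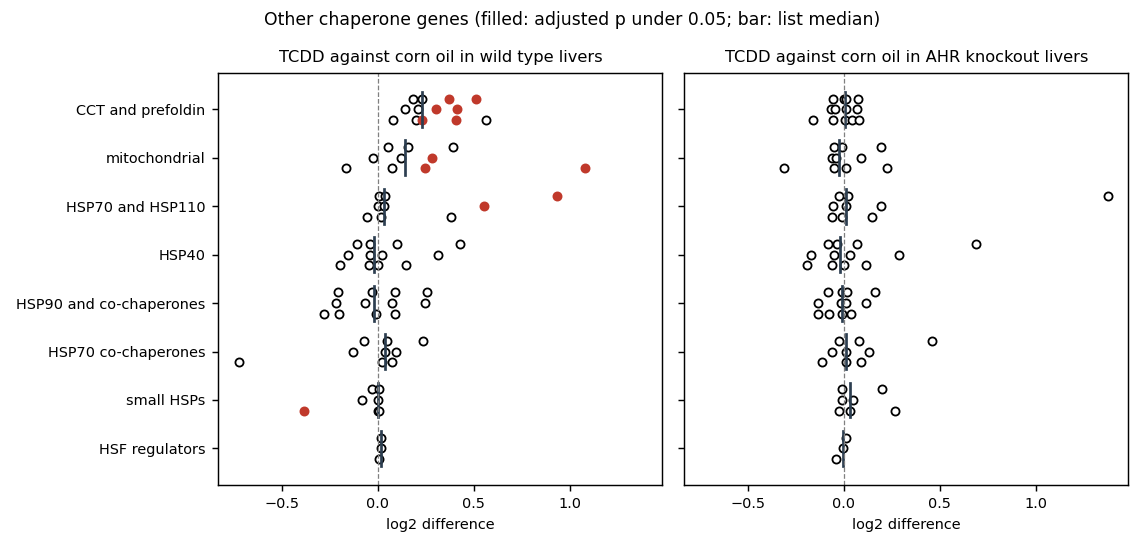
Log2 difference of TCDD minus corn oil for 75 other chaperone genes in wild type and in AHR knockout livers, 1 point per gene, grouped by family. Filled points have limma adjusted p under 0.05, and the bar is the list median. In wild type the CCT and prefoldin genes all lie right of 0, and in knockout no gene was called.

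Liver holds several cell types, and in bulk RNA a change in the share of a cell type and a change in RNA per cell cannot be told apart. Of 30 measured markers of cells other than hepatocytes, none rose and 2 fell (Stab2 and Clec4g, of liver endothelium) with TCDD in wild type. None was called with TCDD in knockout. Of all genes, 6.32% were called in wild type and 0.011% in knockout. The endothelial markers summed to 10.32 to 10.51 (log2) in wild type with TCDD and 10.69 to 10.89 in wild type with corn oil. The hepatocyte markers summed to 17.79 to 17.87 with TCDD and 17.90 to 17.96 with corn oil in wild type, and 3 of 8 fell. Between genotypes with TCDD 6 of the 30 were higher in knockout and 1 lower, and 4 of 8 hepatocyte markers were higher. Of all genes 8.98% were called there (4.57% higher). With corn oil 1 of the 30 (Lyve1, of endothelium) and 1 of the 8 hepatocyte markers (Ahsg) were higher in knockout, against 1.4% of all genes. The stellate cell markers summed to 9.94 to 10.34 in knockout with TCDD and 9.53 to 9.89 in wild type with TCDD, with no overlap. These sums are of unlogged levels, so the brightest markers weigh most. Of the 6 stellate markers, 3 were called higher in knockout with TCDD and 2 averaged lower there without a call. The part of these shifts in the chaperone differences was not tested.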

How the data were processed

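Liver RNA of 17 samples was measured on 1 array each, grouped by the sample titles. The deposited values are log2 levels that the authors had already normalized across arrays, a step that hides any change common to most genes. The submitters' processing notes name RMA and GCRMA with affy 1.5.8, without saying which was used for this table. Values ran from 0.333 to 15.9, with array medians from 3.08 to 3.19. Scan settings deposited beside them gave 3 scan days. Arrays have no read depth, and their number limits the precision.

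Of 45101 probe sets, 64 controls were left out and 45037 tested with no filter. By GEO's platform annotation 34945 name 1 gene, 932 several and 9160 none; 34741 matched the RefSeq table (GRCm38.p6) by Entrez ID. Using limma 3.58.1 (R 4.3.3), lmFit estimated 4 group means and eBayes moderated the spread (13 residual degrees of freedom, prior 1.00). Tests are two-sided with Benjamini-Hochberg adjustment over all 45037 probe sets of a comparison, called at adjusted p under 0.05. A gene rose or fell where its representative probe set was called. The members and lists were chosen with earlier results of these data known. The rule for names took all members, called genes of the other chaperone lists (up to 6 per list, largest first), called markers, and the 8 genes closest in profile to the most variable member; Cyp1a1, Cyp1a2, Tiparp and Ahr were added as checks of the labels, and Hspa1a as a near copy, after values were seen. On simulated data of 45037 probe sets, 100 changed by 1 and 100 by 2 (log2), the code recovered 89 and 97 for TCDD in wild type (8 false calls), 72 and 98 with TCDD in knockout (5 false), 86 and 94 between genotypes with corn oil (3), 85 and 96 between genotypes with TCDD (11), and 69 and 90 for the difference of effects (9). Alternatives were quantile normalization, median centring, array weights, trended and robust moderation, testing only probe sets above the median level, scan day and replicate number as blocks, single scan days, other probe sets of a member, and leaving out each array.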

Additional observations from a re-analysis of the deposited data

Results flagged for a closer look

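Values of 52 gene and group sets of 5 or 6 arrays were searched for a single array far from the rest, and 4 were found; chance alone gives about 1 in 20. Hspe1 read 11.8 in replicate 1 of wild type with corn oil, where the nearest array read 12.06. Tomm34 read 6.82 in replicate 4 of wild type with TCDD, where the nearest read 6.88. Afg3l2 read 8.9999 in replicate 6 of wild type with TCDD, the array that stood apart in residual spread, where the nearest read 8.84. Grpel1 read 10.8 in replicate 5 of wild type with corn oil, where the nearest read 10.91.

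With all arrays and no block, limma's test of the difference between the TCDD effects in knockout and wild type livers called 3 chaperonin genes: Tcp1 (-0.67), Cct5 (-0.46) and Cct3 (-0.44), each the knockout effect minus the wild type effect on the log2 scale. With scan day as a block Cct5 (adjusted p = 0.170) and Cct3 (adjusted p = 0.156) were not called, and within day 2, with 1 knockout corn oil array, none of the 3 was.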

How the results depend on the processing

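Probe sets called with TCDD in knockout numbered 6, against 51 with array weights, 255 within scan day 2, 2 among those above the median level, 1 with scan day as a block, 0 with the replicate block (limma) and 1 to 34 without single arrays. For TCDD in wild type 1882 were called, 456 within day 1, 564 within day 2 and 1466 to 1866 without single arrays. For genotype with corn oil 654 were called, 1310 with array weights, 347 with the replicate block, 294 within day 1 and 404 to 780 without single arrays. For genotype with TCDD 2664 were called, 4768 with array weights, 1664 with the replicate block, 1090 within day 2 and 1838 to 2711 without single arrays. For the difference of effects 501 were called, 1071 with array weights, 239 with scan day as a block, 310 within day 2 and 333 to 552 without single arrays. The replicate numbers do not pair the samples: 2 of 20 same-numbered pairs correlated above 0.1 (r from -0.269 to 0.135). Counts of called members under each alternative were added after seeing the data. The block left 2 members called for TCDD in wild type and 1 in each genotype comparison. The knockout corn oil arm within day 2 (replicate 3, which stands apart) and the wild type corn oil arm within day 1 were 1 array each, assumed to vary like the others, so the 255, 456, 310 and 294 calls there are no check of the spread. With the replicate block Tcp1 kept its call in the difference of effects, and Cct5 and Cct3 did not (adjusted p = 0.0689 and 0.146). Fits within day 3 were not run, as it holds 2 arrays of different groups.

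Signs turned only for member differences that had not passed the test; the cause was not tested. With TCDD in wild type, scan day as a block gave 0.0071 for Hsph1 and -0.12 for Hspb1; day 1 alone gave -0.32 for Hspa1b, 0.18 for Dnajb1 and -0.50 for Hspb1; day 2 alone gave 0.11 for Hsph1 and -0.036 for Hspb1; another probe set gave 0.023 for Hsph1. Leaving out single arrays gave -0.14 to 0.18 for Hspb1, -0.24 to 0.14 for Hsph1, -0.27 to 0.076 for Dnajb1 and -0.037 to 0.52 for Hspa1b. With TCDD in knockout, Hspd1 was 0.0065 with median centring, 0.031 with quantile normalization, 0.0067 with scan day as a block, 0.0496 within day 2 and -0.069 to 0.0085 without single arrays; Hspb8 was 0.022 with scan day as a block, 0.0499 within day 2 and -0.11 to 0.038 without single arrays; Dnajb1 was -0.0090 to 0.96 without single arrays. For genotype with corn oil, Hspb1 was -0.019 with scan day as a block, -0.67 within day 1 and -0.028 to 0.46 without single arrays; Hsp90aa1 was -0.11 within day 1; Hspa1b was -1.26 within day 2 and -0.0079 to 2.004 without single arrays. For genotype with TCDD, Hspd1 was 0.010 with median centring, 0.016 with quantile normalization and -0.055 to 0.0022 without single arrays. For the difference of effects, another probe set gave -0.18 for Hspb8, and Hspa1b was -0.21 to 1.80 without single arrays. Over all differences of single genes, 1392 of the recomputed values kept direction and side of the threshold, 167 lost the call, 4 gained one and 43 turned sign.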
